A study of Mus musculus with 4 samples.

Results

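The 8 heavy-chain constant genes of the mouse immunoglobulin locus (Ighm, Ighd, Ighg3, Ighg1, Ighg2b, Ighg2c, Ighe and Igha) were followed cell by cell in leukocytes from tumours treated with agonists of STING and of the lymphotoxin-β receptor (LTβR). The 8 were chosen by name, out of 33696 features, and all 8 carried an identifier and a symbol in the data. They were read in marker cells, defined as cells with at least 1 unique molecular identifier (UMI, a tag that marks 1 captured RNA molecule) of the plasma cell genes Mzb1, Derl3 or Tnfrsf17 or of the B cell genes Cd79a or Ms4a1. The marker genes are not members, so the choice of cells did not use the values described. After cells were filtered on gene number and mitochondrial share and likely doublets were taken out, there were 156 marker cells of 7524 in the untreated library, 137 of 13444 in the STING agonist library, 611 of 13223 in the LTβR agonist library and 1048 of 14667 in the combination library.

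The 4 libraries held leukocytes (live and CD45+ by sorting) of tumours grown from KPC, a pancreatic cancer line of the mouse, under the skin of male C57BL/6NHsd mice of 8 to 10 weeks. Groups were untreated mice, mice given STING agonist (ADU-S100, 2 μg into each tumour once), mice given LTbR agonist (the antibody 4H8, 100 μg into the peritoneum 4 times up to day 10) and mice given both (combination therapy). Tumours were taken on day 14, and 10 tumours were pooled within each group, so each group had 1 library and individual mice could not be told apart. All intervals below are exact 95% intervals and cover counting error only, not the spread between mice, and no test between groups was possible. Values in sets of 4 are given in the order untreated, STING agonist, LTβR agonist and combination.

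A B cell first transcribes the μ and δ constant genes, which lie next to the rearranged variable (V), diversity and joining segments, and alternative RNA processing gives IgM or IgD from the same transcript. Class switch recombination then deletes the DNA between 2 switch regions, so that the same V segment is joined to a downstream γ, ε or α gene, and plasma cells secrete the resulting antibody in large amounts. C57BL/6 mice carry Ighg2c in place of the Ighg2a of some other strains, and the 4 IgG subclasses differ in how they bind complement and Fc receptors.

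All 8 members lie on chromosome 12 on the minus strand, in the order of transcription Ighm, Ighd, Ighg3, Ighg1, Ighg2b, Ighg2c, Ighe and Igha, and all 8 identifiers matched the GENCODE M21 annotation (GRCm38). The IgG genes are close copies of each other, so calling a subclass per cell rests on the bases that differ. Below is the start of the coding exon for the CH1 domain, 120 of 291 bases of each of the 4 IgG genes, from the GENCODE M21 transcripts, since it is the constant exon nearest to the V segment and thus to the end read by a 5′ library. Capitals mark the 39 positions of these 120 at which the 4 genes are not all the same. The stretches lie at chr12:113330404-113330523 for Ighg1, chr12:113307814-113307933 for Ighg2b, chr12:113288813-113288932 for Ighg2c and chr12:113361113-113361232 for Ighg3.
Ighg1: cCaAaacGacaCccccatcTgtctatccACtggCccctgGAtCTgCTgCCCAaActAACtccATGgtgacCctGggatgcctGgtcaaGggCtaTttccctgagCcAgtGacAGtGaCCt
Ighg2b: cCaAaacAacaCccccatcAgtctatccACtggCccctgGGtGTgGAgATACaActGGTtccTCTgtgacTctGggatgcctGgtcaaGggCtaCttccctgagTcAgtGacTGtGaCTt
Ighg2c: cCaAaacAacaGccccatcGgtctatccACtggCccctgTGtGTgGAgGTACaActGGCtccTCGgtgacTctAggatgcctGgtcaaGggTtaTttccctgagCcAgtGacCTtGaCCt
Ighg3: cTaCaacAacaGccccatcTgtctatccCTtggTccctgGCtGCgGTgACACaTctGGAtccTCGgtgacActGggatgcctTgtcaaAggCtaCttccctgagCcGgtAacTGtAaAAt
Over the whole exon, 88 of 291 positions varied. Ighg1 and Ighg2b shared 88.3% of bases, Ighg1 and Ighg2c 88.0%, Ighg2b and Ighg2c 87.6%, and Ighg3 shared 78.4 to 79.0% with the others. The longest identical run between any pair was 37 bases, between Ighg1 and Ighg2b, and none of the 202 windows of 90 bases in a gene was found whole in another.

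The libraries differed in depth and in what the marker cells were. The median number of UMIs per marker cell was 8395.5, 8214, 6330 and 3439 and was thus lowest after combination therapy. Heavy-chain UMIs of the 8 members summed to 109984, 122663, 725955 and 735362 over marker cells. A marker cell was assigned to its leading member, the one with most UMIs, when the 8 together had at least 10 UMIs. The assigned cells numbered 65, 49, 380 and 624, and they held 99.8 to 99.9% of the heavy-chain UMIs of the marker cells of each library. Of the marker cells left unassigned, 54.9, 40.9, 47.6 and 33.7% held at least 2 of 6 macrophage genes, against 16.9, 22.4, 11.1 and 13.6% of assigned cells. At least 2 of 10 plasma cell genes were found in 98.5, 100, 90 and 93.1% of assigned cells and in 76.9, 65.9, 57.6 and 50.2% of unassigned cells. At least 2 of 10 B cell genes were found in 69.2, 69.4, 82.4 and 64.4% of assigned cells. Among unassigned cells the B cell shares were 9.89, 10.2, 22.9 and 26.7%. Mzb1, Derl3 and Tnfrsf17 are on the plasma cell list and Cd79a and Ms4a1 on the B cell list. All 5 also selected the cells, so these shares are a description. No pair of libraries shared more than 83 cell barcodes, and no shared barcode was a marker cell in both.

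Assigned cells were a larger part of the marker cells after LTβR agonist and combination therapy than in the other libraries. They made up 41.7% of marker cells in the untreated library (33.8 to 49.8), 35.8% with STING agonist (27.8 to 44.4), 62.2% with LTβR agonist (58.2 to 66.1) and 59.5% with combination therapy (56.5 to 62.5). As a share of all kept cells, assigned cells were 0.864%, 0.364%, 2.87% and 4.25%. Requiring at least 2 of the 5 marker genes raised the assigned share to 96.4, 93.3, 92.6 and 87.7%, and the untreated library then had the highest share. Thinning each cell to 1500 UMIs and reading the marker genes again gave 56.1, 57.4, 67.8 and 72.1% of 82, 68, 435 and 675 marker cells.

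T cells, which do not make antibody, gave the level of free RNA. T cells were cells with at least 2 of the 6 genes Cd3d, Cd3e, Cd3g, Trac, Trbc1 and Trbc2. At least 1 heavy-chain UMI was found in 43.7, 38.9, 70.4 and 79.4% of T cells, at median depths of 3955.5, 4279, 3254 and 2007 UMIs, so a single UMI of a member does not mark an antibody-making cell here. At the limit of 10 UMIs, only 2 of 1207, 2 of 552, 8 of 1909 and 4 of 1253 T cells without a marker gene were assigned, which is 0.166, 0.362, 0.419 and 0.319%. The free RNA in these T cells was led by Ighm, with 56.1, 62.2, 45.1 and 34.7% of heavy-chain UMIs. Of T cells that also held a marker gene, 2 of 9, 0 of 3, 6 of 29 and 11 of 39 were assigned, with up to 4920 heavy-chain UMIs in a cell. These T-gated marker cells were counted among the marker cells, and leaving them out moved no IgG subclass share given below outside its interval.

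Ighm, which encodes the μ chain of naive B cells and of IgM plasma cells, led 11 cells in the untreated library, 11 with STING agonist, 143 with LTβR agonist and 217 with combination therapy. This was 16.9% of assigned cells in the untreated library (8.76 to 28.3), 22.4% with STING agonist (11.8 to 36.6), 37.6% with LTβR agonist (32.7 to 42.7) and 34.8% with combination therapy (31.0 to 38.7). The IgG genes together led 73.8% (61.5 to 83.97), 67.3% (52.5 to 80.1), 54.7% (49.6 to 59.8) and 56.9% (52.9 to 60.8). Thus, the untreated interval lay above that of the LTβR agonist and of the combination for IgG and below both for Ighm. Igha, which encodes the heavy chain of mucosal IgA, led 5, 5, 27 and 48 cells, which was 7.69, 10.2, 7.11 and 7.69% of assigned cells, and the 4 intervals overlapped.

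**Figure D1:**
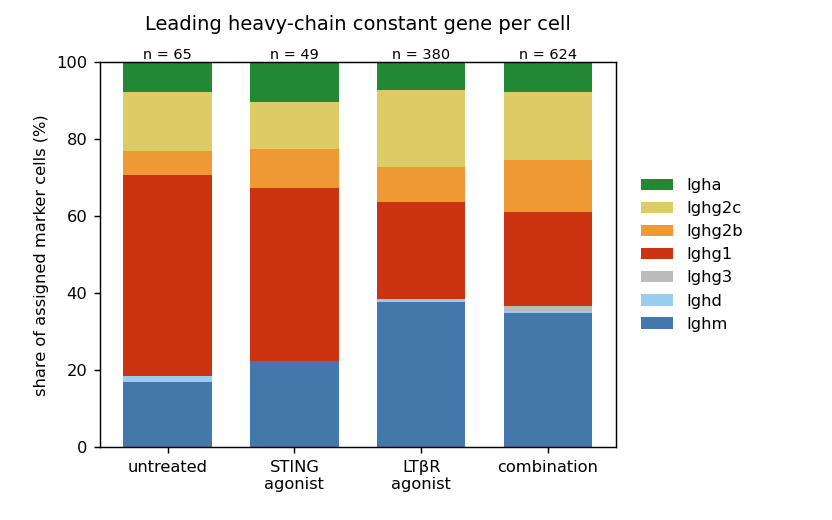
Share of assigned marker cells (y axis, %) led by each heavy-chain constant gene in the 4 libraries (x axis), with the number of assigned cells above each bar. Ighg1 takes 52.3, 44.9, 25.3 and 24.4% of cells from left to right and Ighm 16.9, 22.4, 37.6 and 34.8%.

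The Ighm cells fell into cells with few and cells with many heavy-chain UMIs. With LTβR agonist, 86 of the 143 cells held fewer than 100 heavy-chain UMIs (median 21) and 57 held at least 100 (median 2943). In the low cells, Ms4a1, which encodes CD20 on the surface of B cells, was found in 94.2%, Ighd in 57.0% and Sdc1, the plasma cell surface protein CD138, in 0%. In the high cells Ms4a1 was found in 24.6%, Ighd in 5.26% and Sdc1 in 75.4%. With combination therapy the 84 low cells held Ms4a1 in 77.4%, Ighd in 34.5% and Sdc1 in 2.38%, and the 133 high cells in 24.8, 0 and 59.4%. Ms4a1 is 1 of the 5 genes that selected the cells, so its shares are partly set by the selection, whereas Ighd and Sdc1 were not used for it. The low cells were also shallower, with 4197.5 against 11927 UMIs per cell with LTβR agonist and 2855.5 against 6912 with combination therapy. Low Ighm cells were 6 of 65, 3 of 49, 86 of 380 and 84 of 624 assigned cells. The low cells of the untreated and STING agonist libraries differed in markers from those above, with Ms4a1 in 2 of 6 and 0 of 3, Ighd in 2 of 6 and 0 of 3, and Mzb1 in all.

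**Figure D2:**
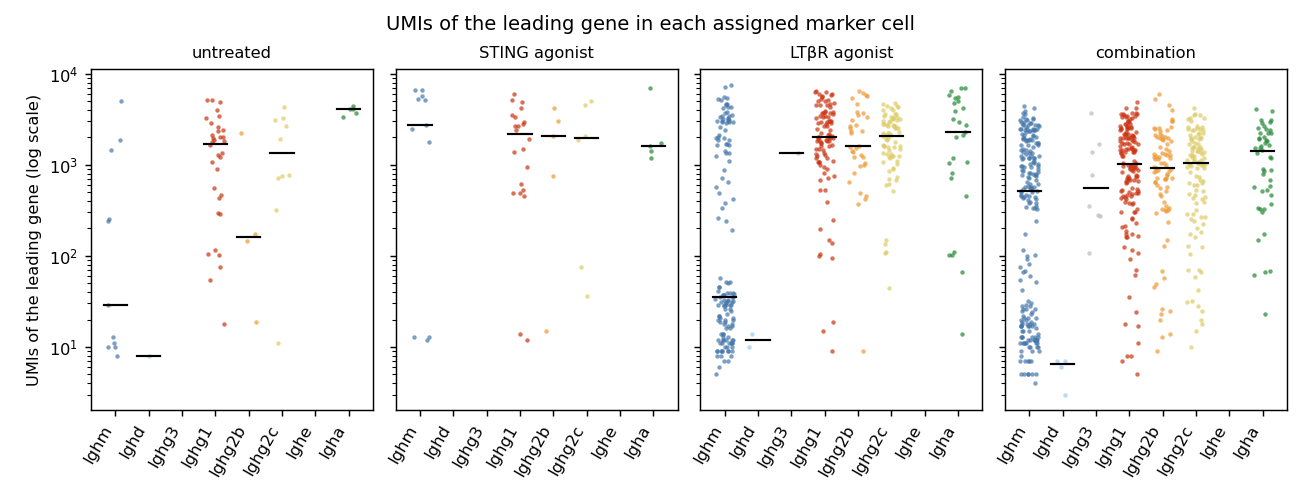
UMIs of the leading gene in each assigned marker cell (y axis, log scale) by leading gene (x axis) in the 4 libraries, with a bar at the median. Ighm cells form a low and a high group, with medians over both of 29, 2763, 35 and 514 UMIs, whereas most IgG and IgA cells lie in the high range.

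Ighd, the δ constant gene, was sparse. Its UMIs over marker cells were 13, 9, 192 and 182, spread over 5, 5, 70 and 79 cells with at most 8, 3, 14 and 7 UMIs in a cell. Of the cells with an Ighd UMI that were assigned, 54 of 54 with LTβR agonist were led by Ighm or Ighd, and 33 of 34 with combination therapy, where the remaining cell was led by Ighg1. A further 16 of 70 and 45 of 79 cells with an Ighd UMI were not assigned, so their leading gene was not called. Ighd led 1, 0, 2 and 4 cells. In T cells without a marker, Ighd was found in 0.994, 0.906, 1.41 and 0.798% of cells, against 3.21, 3.65, 11.5 and 7.54% of marker cells. The untreated and STING agonist shares of marker cells rest on 5 cells each.

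Ighg1 was the most frequent IgG gene in every library, but its lead was smaller after LTβR agonist and combination therapy. Of IgG cells, Ighg1 led 34 of 48 in the untreated library (70.8%, 55.9 to 83.0), 22 of 33 with STING agonist (66.7%, 48.2 to 82.0), 96 of 208 with LTβR agonist (46.2%, 39.2 to 53.2) and 152 of 355 with combination therapy (42.8%, 37.6 to 48.1). Its intervals in the LTβR agonist and combination libraries overlapped and both lay below the untreated interval. The STING agonist interval overlapped those of the untreated and LTβR agonist libraries and began just above that of the combination. In UMIs the share of Ighg1 among the 4 IgG genes was 74.004, 67.4, 48.5 and 45.9%.

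Ighg2c and Ighg2b led most of the other IgG cells. Ighg2c led 10, 6, 76 and 110 cells. These were 20.8% (10.5 to 34.99), 18.2% (6.98 to 35.5), 36.5% (29.99 to 43.5) and 31.0% (26.2 to 36.1) of IgG cells. Ighg2b led 4, 5, 35 and 85 cells. Its shares were 8.33% (2.32 to 19.98), 15.2% (5.11 to 31.9), 16.8% (12.01 to 22.6) and 23.9% (19.6 to 28.7). For either gene alone, all 4 intervals overlapped. Ighg3, the γ gene nearest to Ighd, led 0, 0, 1 and 8 cells. The 0 of 48 and 0 of 33 IgG cells allowed shares of up to 7.40 and 10.6%, so the absence of Ighg3 cells from the smaller libraries was not a detectable difference.

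The IgG cells of every library carried 1 subclass almost purely. The leading gene held a median of 100, 100, 100 and 99.9% of a cell's IgG UMIs, and in 95% of IgG cells it held more than 97.3, 99.1, 97.5 and 95.7%. Among assigned cells of any class with at least 100 heavy-chain UMIs, the leading member held at least 95% of the 8 members' UMIs in 52 of 53, 41 of 41, 278 of 284 and 480 of 496 cells. A trace of another member was nonetheless common, since 14, 12, 86 and 77 of these cells held at least 10 UMIs of a second gene.

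Cells of the 3 larger subclasses held similar amounts of their gene. With LTβR agonist the median UMIs of the leading gene were 2035.5 for Ighg1, 1613 for Ighg2b and 2085 for Ighg2c, and with combination therapy 1030, 920 and 1037.5. As a share of all UMIs in the cell, these medians were 18.9, 17.6 and 17.2% and 17.5, 16.5 and 16.9%. The medians in UMIs were lower after combination therapy, where cells were also shallower, and the medians as a share of the cell differed by less than 2 percentage points. In the untreated library Ighg1 led with a median of 1706 UMIs (18 to 5224) and with STING agonist with 2179.5 (12 to 5945). Igha cells had 4087 (3334 to 4435), 1616 (1183 to 6933), 2324 (14 to 7002) and 1409 UMIs (23 to 4149).

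The V genes showed how many of these cells could be related. A 5′ library reads into the V segment, and a cell was given a V pair when at least 10 heavy-chain V and 10 light-chain V UMIs were present, each with 1 V gene holding at least 20%, in a cell with no second isotype. A V pair names 2 germline genes and is not a clone, since the junction was not read. It was obtained in 52 of 65, 43 of 49, 253 of 380 and 455 of 624 assigned cells, with 27, 25, 103 and 165 distinct pairs. Pairs found in 2 or more cells held 65.4, 58.1, 74.7 and 77.8% of these cells. As the libraries came from separate mice, a pair found in 2 libraries cannot be 1 clone, and of the recurrent pairs 6 of 9, 4 of 7, 13 of 39 and 11 of 64 were also found in another library.

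A few V pairs carried much of the subclass pattern. With LTβR agonist the pair Ighv3-6 and Igkv12-44 was found in 50 cells, of which Ighg2c led 26, Ighg1 15 and Ighg2b 9, so that it supplied 37.1% of the Ighg2c cells with a V pair. With combination therapy the same pair was found in 12 cells, of which Ighg1 led 11 and Ighg2b 1. The most frequent pair there was Ighv1-39 and Igkv8-30 with 49 cells, of which Ighg2b led 29, Ighg2c 11, Ighg1 8 and Igha 1, and it supplied 42.0% of the Ighg2b cells with a pair. Ighv8-8 and Iglv1 came next in both libraries, with 20 cells (9 Ighg1, 9 Ighg2c and 2 Ighg2b) and 37 cells (21 Ighg2c, 11 Ighg1, 2 Ighg2b, 2 Igha and 1 Ighm). In the untreated library the leading pair was Ighv14-2 and Igkv4-74, with 12 cells, of which 11 were led by Ighg1 and 1 by Ighg2c, and with STING agonist the same pair gave 6 cells, all led by Ighg1.

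**Figure D3:**
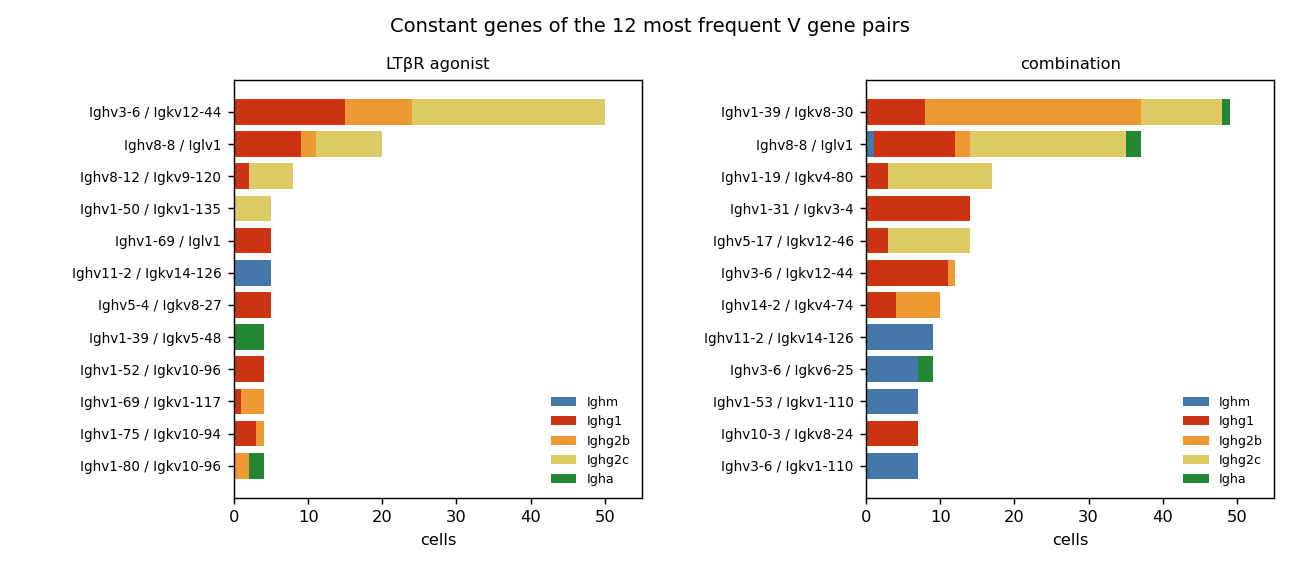
Cells (x axis) of the 12 most frequent pairs of a heavy-chain and a light-chain V gene (y axis) in the LTβR agonist and combination libraries, coloured by leading constant gene, with ties in name order. The top pair holds 50 and 49 cells and spans 3 and 4 constant genes, whereas Ighv11-2 with Igkv14-126 is led by Ighm in all 5 and 9 cells.

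Other pairs kept to a single constant gene. Ighv11-2 with Igkv14-126, a pair known from B-1a cells that bind phosphatidylcholine, was found in 3, 0, 5 and 9 cells, and Ighm led all of them, with median heavy-chain UMIs of 1461, 2943 and 503 where it was present. Ighv1-31 with Igkv3-4 gave 14 Ighg1 cells with combination therapy and none of another gene. In all, 4 of 9, 1 of 7, 11 of 39 and 12 of 64 recurrent pairs were led by more than 1 constant gene, and 3, 1, 9 and 8 of them by more than 1 IgG gene. Recurrent pairs that included both Ighm and another leading gene were 0 of 9, 0 of 7, 0 of 39 and 5 of 64. Of Ighm cells with a pair, 45.1% (31.1 to 59.7) with LTβR agonist and 58.3% (49.0 to 67.3) with combination therapy shared it with another Ighm cell. Of Ighg2c cells, 85.7% (75.3 to 92.9) and 88.2% (79.8 to 93.9) shared it with another Ighg2c cell, the highest shares of the genes with more than 1 such cell. For Ighg1 the shares were 75.3 and 83.7%, for Ighg2b 70 and 82.6% and for Igha 65 and 61.9%, and for Ighg3 62.5% of 8 cells with combination therapy. The intervals of Igha in both libraries, of Ighg2b with LTβR agonist and of Ighg3 with combination therapy overlapped those of Ighm.

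When each V pair was counted once per leading gene, a count chosen after the data were seen, the shares of Ighg1 and Ighg2c lay closer between libraries and those of Ighg2b did not. Ighg1 then took 15 of 25 pairs (60%, 38.7 to 78.9), 7 of 17 (41.2%, 18.4 to 67.1), 35 of 71 (49.3%, 37.2 to 61.4) and 38 of 87 (43.7%, 33.1 to 54.7), and all 4 intervals overlapped. Ighg2c took 32.0, 35.3, 28.2 and 25.3% of pairs, with the untreated and STING agonist libraries now above the other two, and Ighg2b 8, 23.5, 21.1 and 26.4%. Leaving out the most frequent pair of each library, in all IgG cells whose leading V genes were that pair at any number of V UMIs, gave 63.9, 59.3, 51.3 and 48.0% of 36, 27, 156 and 298 cells for Ighg1. Ighg2b then led 11.1, 18.5, 16.7 and 17.4% and Ighg2c 25, 22.2, 31.4 and 31.9%. The untreated interval of Ighg1 (46.2 to 79.2) then overlapped that of the LTβR agonist (43.2 to 59.4) and that of the combination (42.2 to 53.8). The pair left out was picked from these data. In the untreated library Ighg1 led 11 of its 12 cells, so leaving it out had to lower that share. Fewer cells or pairs also widen the intervals, so these overlaps cannot show that the libraries were alike.

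**Figure D4:**
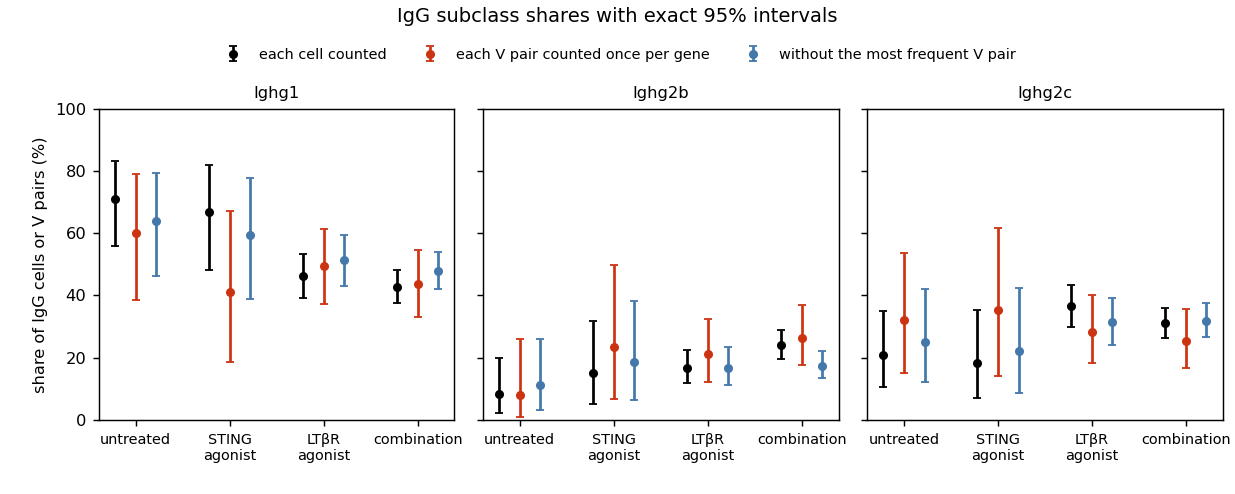
Share (y axis, %) of IgG cells or V pairs led by Ighg1, Ighg2b and Ighg2c in the 4 libraries (x axis), with exact 95% intervals that cover counting error only. Black points count each cell, red points each V pair once per leading gene, and blue points leave out the cells of the most frequent pair; the black Ighg1 points run from 70.8 to 42.8% and the red from 60 to 43.7%.

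Co-expression of 2 isotypes was rare. A cell was called co-expressing when its second member had at least 10 UMIs and at least 10% of the heavy-chain UMIs. This held for 0 of 65, 0 of 49, 6 of 380 (1.58%, 0.582 to 3.405) and 7 of 624 cells (1.12%, 0.452 to 2.30). The exact intervals of the counts of 0 reached 5.52 and 7.25%, so the libraries could not be told apart. In T cells without a marker gene no cell was co-expressing, but the highest held only 11, 12, 58 and 71 heavy-chain UMIs. A call was hardly possible there, so this absence says little about free RNA in cells with many UMIs.

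Of the 6 cells with LTβR agonist, 2 held Ighm with Ighd, at 22 with 12 and 26 with 14 UMIs, the pair that comes from a single transcript in naive B cells. The other 4 came as 2 pairs of barcodes with closely matching content. In the barcodes with Ighm and Ighg2c, 2014 and 929 UMIs stood beside 1882 and 786, and both barcodes had Ighv6-6 and Ighv1-52 as their leading heavy-chain V genes. In the barcodes with Ighg1 and Ighg2c, 1925 and 1122 UMIs stood beside 1848 and 1014, and both had Ighv1-81 and Ighv1-18. Counting each such pair as 1 cell left 4 of 378 (1.06%, 0.289 to 2.69).

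With combination therapy, Ighm went with Ighg1 in 3 cells, Ighm with Ighg2b in 2, Ighg1 with Ighg2c in 1 and Ighg2b with Ighg2c in 1. The most even was a cell with 1253 Ighm and 1167 Ighg1 UMIs, with Ighv1-31 and Ighv9-4 as its V genes. At least 2 heavy-chain V genes each held 20% of V UMIs in 3 of 4 and 2 of 6 co-expressing cells with enough V UMIs, against 3 of 267 and 1 of 473 cells with a single isotype. At least 2 light-chain V genes were found in 5 of 5 and 4 of 7, against 23 of 306 and 18 of 527. The 4 barcodes with LTβR agonist are the 2 matching pairs described above, which are also 4 of the 5 in the light-chain count, so if each pair is 1 cell the heavy-chain share rests on 2 cells and the light-chain share on 3. The 7 cells with combination therapy held 7637 to 26508 UMIs, against a median of 3439 over marker cells of that library, and 1 of them also passed as a T cell.

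**Figure D5:**
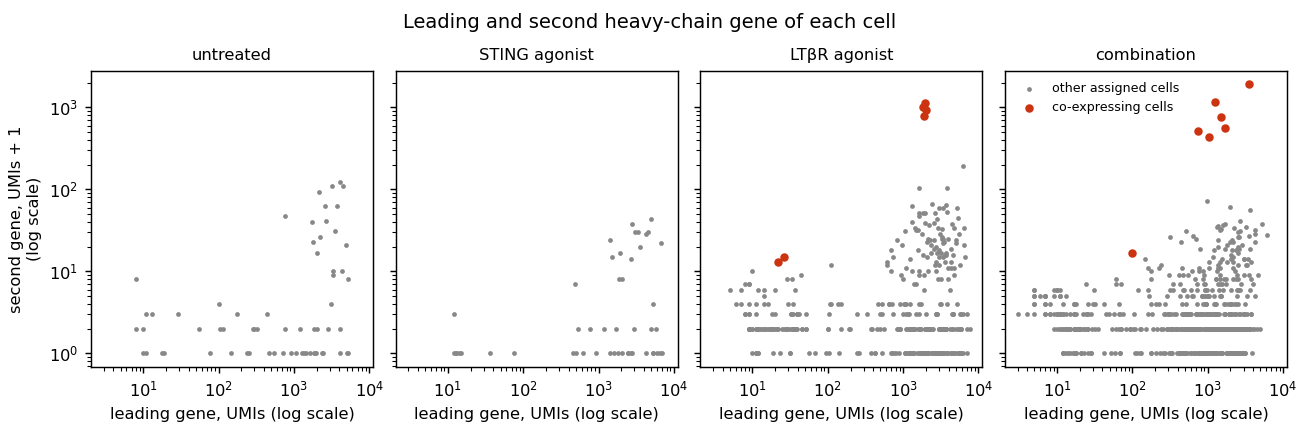
UMIs of the leading (x axis, log scale) and the second heavy-chain gene plus 1 (y axis, log scale) in each assigned cell of the 4 libraries; red points are the co-expressing cells, 0, 0, 6 and 7 from left to right. Most cells lie along the bottom, and of cells with at least 100 heavy-chain UMIs, 14 of 53, 12 of 41, 86 of 284 and 77 of 496 hold at least 10 UMIs of a second gene.

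Low levels of a second member were not spread evenly over genes. Ighe, which encodes the IgE heavy chain, led no cell, but 1, 4, 2 and 9 cells held at least 10 Ighe UMIs. With STING agonist all 4 were led by Ighg1, with 29, 19, 16 and 13 Ighe UMIs beside 3378, 3551, 1926 and 2676 of Ighg1, and all 4 carried Ighv8-8 and Igkv8-21, the only 4 cells of that library with this pair. The untreated library had 3 cells with the pair, all led by Ighg1. With combination therapy 8 of the 9 were led by Ighg1 and 1 by Ighg2c, with 10 to 55 Ighe UMIs, of which 2 carried Ighv1-50 with Igkv10-94 and 2 Ighv3-6 with Igkv12-44. Both cells with LTβR agonist were led by Ighg1, and the untreated cell, with 25 Ighe UMIs, by Ighg2b. Ighe held 0.449 to 2.08% of the heavy-chain UMIs in these cells, and all 16 had a single heavy-chain V gene. T cells without a marker held 2, 0, 0 and 0 Ighe UMIs in all.

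Ighg2b was found in Igha cells of some libraries beyond the level of free RNA. Among Igha cells with at least 100 UMIs in the untreated library, Ighg2b had 299 UMIs in 4 of 5 cells, at 121, 109 and 61 UMIs in the highest 3, where the rate of free RNA in T cells predicted 1.97. The highest 2 both carried Ighv8-8 with Iglv1. With LTβR agonist it had 104 UMIs in 9 of 25 cells, with 10 to 33 UMIs in 6 of them, where 2.17 were predicted. With STING agonist it had 1 UMI over the 5 cells, and with combination therapy 42 UMIs in 10 of 44 cells, where 44.4 were predicted. Ighm in the same Igha cells had 0, 0, 28 and 37 UMIs, under the 13.2, 8.73, 62.1 and 92.1 predicted from T cells. With combination therapy Ighg1 (14 against 54.2) and Ighg2c (30 against 52.9) were also under their predictions in these cells. The prediction may thus be too high there, and whether the Ighg2b UMIs of that library were free RNA was not tested. In Ighg1 cells Ighm had 174 UMIs against 39.5 predicted in the untreated library and 589 against 230 with LTβR agonist, and 43 against 38.4 with STING agonist. With combination therapy it had 3015 against 335, but 2 co-expressing cells held 755 and 1921 of these UMIs.

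Each member was held by few cells. The fewest cells that held 50% of the Ighg1 UMIs were 8, 6, 25 and 35. For Ighm they were 1, 3, 17 and 36, for Ighg2b 1, 2, 9 and 18, for Ighg2c 3, 2, 24 and 25, and for Igha 3, 1, 7 and 12. Single cells held 54.2% of Ighm and 73.5% of Ighg2b in the untreated library, and 53.6% of Igha with STING agonist. Ighg3 was the most concentrated in the larger libraries, with 1341 of its 1400 UMIs (95.8%) in 1 cell with LTβR agonist and 3712 of 8654 (42.9%) in 1 cell with combination therapy. Of the 8 Ighg3 cells of the combination library, 5 carried Ighv7-3 with Iglv1. Over all 8 members, the highest 10 cells held 41.3, 46.9, 9.25 and 6.49% of heavy-chain UMIs.

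Summed over marker cells, the level of IgG was higher in the 2 libraries given the LTβR agonist. Levels are CPM of the UMIs outside immunoglobulin genes and, since a bulk sum mixes the number of antibody-making cells and the RNA in each, more cells and more RNA per cell cannot be told apart in it. The 4 IgG genes together stood at 66387 CPM, 67577 CPM, 140605 CPM and 128543 CPM. The log2 ratio to untreated was 0.03 with STING agonist, 1.08 with LTβR agonist and 0.95 with combination therapy. The counting intervals of these ratios (0.01 to 0.04, 1.07 to 1.09 and 0.94 to 0.96) treat UMIs as independent, although few cells hold most of them. With at least 2 marker genes required the ratios were -0.13, 0.28 and 0.17, and with the UMIs of all kept cells as the total -0.75, 2.14 and 2.52. Against the LTβR agonist library, the log2 ratio of the combination was -0.13 relative to the UMIs of marker cells and 0.37 relative to those of all kept cells, which are shares of UMIs and not amounts per cell.

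Among members with over 200 UMIs in every library, Ighm, Ighg2b and Ighg2c were the furthest above untreated with LTβR agonist and with combination therapy, whereas Ighg2c was below untreated with STING agonist. Ighm stood at 7647 CPM, 33938 CPM, 44563 CPM and 56618 CPM, with log2 ratios to untreated of 2.15, 2.54 and 2.89. Ighg2b stood at 2476 CPM, 9437 CPM, 24195 CPM and 30077 CPM (1.93, 3.29 and 3.60). Without the top cell of each library, these ratios became 2.99, 3.60 and 3.98 for Ighm and 3.08, 5.09 and 5.44 for Ighg2b, so the untreated levels rested on single cells. Ighg2c stood at 14783 CPM, 12597 CPM, 47856 CPM and 37077 CPM (-0.23, 1.69 and 1.33).

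Ighg1, at 49129 CPM, 45539 CPM, 68154 CPM and 58982 CPM, and Igha, at 16210 CPM, 11967 CPM, 21837 CPM and 19230 CPM, differed least. Their log2 ratios to untreated were 0.47 and 0.43 with LTβR agonist and 0.26 and 0.25 with combination therapy, but -0.32 and -0.48 and then -0.51 and -0.51 when 2 marker genes were required, so no direction held. Ighg3 had 0 UMIs in untreated marker cells and 4, 1400 and 8654 in the others. With the untreated count set to the limit of 3, its level was 162-fold higher with LTβR agonist and 977-fold higher with combination therapy. These are not lower bounds, since the exact 95% interval of the log2 ratio began lower, at 7.04 and 9.63. That interval treats UMIs as independent, although Ighg3 led only 1 and 8 cells in these libraries. Without the top cell 59 and 4942 UMIs remained, and the values on the same limit fell to 6.83-fold and 558-fold. Ighd stood at 10.7 CPM, 8.33 CPM, 54.8 CPM and 50.6 CPM, and Ighe at 21.3 CPM, 71.3 CPM, 15.7 CPM and 65.9 CPM.

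Members past 2-fold are given beside all other genes in the same marker cells, for genes with at least 200 UMIs summed over the 2 libraries compared. With STING agonist 2 of 5 members that met this minimum were at least 2-fold higher than untreated (Ighm and Ighg2b), where 2.01% of all genes outside immunoglobulins were higher and 0.758% lower. With LTβR agonist 5 of 7 were higher (Ighm, Ighd, Ighg3, Ighg2b and Ighg2c), where 1.66% of genes were higher and 2.36% lower. With combination therapy 5 of 7 were higher (Ighm, Ighg3, Ighg2b, Ighg2c and Ighe), where 1.11% of genes were higher and 2.14% lower. In these comparisons Ighg3, Ighd and Ighe met the minimum only through the treated library, so they had to differ and the counts of 5 of 7 give no support by themselves. The other 5 members had over 200 UMIs in every library, and of these Ighm, Ighg2b and Ighg2c were at least 2-fold higher with LTβR agonist and with combination therapy. With 2 marker genes required, Ighg2c no longer reached 2-fold, at log2 ratios of 0.87 and 0.45, nor did Ighe with combination therapy, at 0.93. Ighm then stood at 1.80 and 2.22 and Ighg2b at 2.58 and 2.96. Comparing the combination with each agonist, 2 of 8 members (Ighg3 and Ighe) were at least 2-fold higher than with LTβR agonist, where 0.163% of genes were higher and 0.163% lower. Against STING agonist, 3 of 7 were at least 2-fold higher (Ighg2b, Ighg2c and Ighg3), with 1.88% of genes higher and 2.43% lower, and with 2 marker genes required Ighg2c fell short of 2-fold at 0.86. Ighe in both and Ighg3 in the latter met the minimum only through the combination library. No member that met the minimum was 2-fold lower in these 5 comparisons, and the 3 comparisons with untreated share their control library.

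The 36 genes listed for class switching, plasma cells and B cell homing were read in the same way. Of those with at least 200 UMIs, 0 of 11 were 2-fold higher with STING agonist, 6 of 21 with LTβR agonist (among them Bach2, Pax5, Fcrl5, Tnfrsf13c and Cd79b) and 4 of 21 with combination therapy (among them Bach2, Pax5 and Tnfrsf13c). Pax5, the factor that keeps B cell identity, stood at 13.95 CPM, 12.96 CPM, 149 CPM and 116 CPM. The only gene at least 2-fold lower in the last 2 libraries was Ccr9, at 176 CPM, 147 CPM, 41.6 CPM and 10.6 CPM. It is a gut-homing receptor that is also a plasmacytoid dendritic cell marker, and at least 2 of 6 markers of that cell type were found in 24.2, 15.9, 9.09 and 2.36% of the unassigned marker cells. The part of those cells in the Ccr9 values was not tested.

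Ung, a glycosylase that takes part in switching, had 4, 3, 21 and 28 UMIs over all marker cells. Jchain, which joins IgA and IgM into polymers, stood at 11408 CPM, 13526 CPM, 17552 CPM and 14844 CPM, and Xbp1, the factor of the secretory programme, at 1001 CPM, 1244 CPM, 1701 CPM and 1621 CPM. Pigr, the receptor that carries IgA across epithelium, had 0, 0, 1 and 3 UMIs.

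Genes outside immunoglobulins differed between cells led by different constant genes. The Ighm cells included the low cells described above, 86 of 143 with LTβR agonist and 84 of 217 with combination therapy. Those low cells were rich in Ms4a1 and poor in Sdc1, and they are also among the comparison cells of the IgG and Igha lists. The lists were not split by low and high cells, so the part of the constant gene in them was not tested. Within the LTβR agonist and combination libraries, the 5 genes furthest above the other assigned cells were named for each class among 5851 genes, so their ratios are a description of how they were chosen. For Ighm cells these were Agbl1, Spib, Cxcr5, Fcrl5 and Fcmr. Spib, a B cell transcription factor, had 103 UMIs in 54 of 143 Ighm cells against 0 in the other 237 with LTβR agonist, and 67 in 40 of 217 against 3 in the other 407 with combination therapy. Cxcr5, the follicle-homing receptor, had 118 against 10 and 93 against 6 UMIs, and Fcmr, the IgM Fc receptor, 120 against 13 and 84 against 10. Agbl1 was more concentrated, with 29.2 and 26.3% of its UMIs in 1 cell.

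The IgG list was led by Slpi, a secreted inhibitor of serine proteases. Slpi had 121961 UMIs in 205 of 208 IgG cells with LTβR agonist and 121265 in 338 of 355 with combination therapy, against 1881 and 3100 UMIs in the 172 and 269 other assigned cells. Its log2 ratio was 5.26 (5.20 to 5.33) and 4.65 (4.60 to 4.70), and the highest cell held 4.90 and 2.89% of its UMIs. Cxcr3, a receptor for interferon-induced chemokines, followed with 128 against 7 and 91 against 7 UMIs, in 74 of 208 and 60 of 355 IgG cells against 5 and 5 others. Ly6a2, Ovol3 and Cldn7 completed the list, with log2 ratios of 2.09 to 3.62.

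For Igha cells the 5 genes were Adgrl2, Ifitm1, Txndc5, Pls1 and Aif1, with log2 ratios of 1.87 to 2.84. Txndc5, a disulphide isomerase of the endoplasmic reticulum and a plasma cell gene, was the best covered, with 518 UMIs in 25 of 27 Igha cells and 459 in 43 of 48. Ifitm1 rested on single cells, which held 98.8 and 87.7% of its UMIs in Igha cells, and 50% of the Aif1 UMIs of Igha cells came from 1 cell with LTβR agonist. Tnfrsf17, the receptor BCMA that supports plasma cell survival, was found in 51.9 and 39.6% of Igha cells in these libraries, against 15.9 and 5.92% of IgG cells and 25.2 and 21.7% of Ighm cells. It is 1 of the 5 marker genes that selected the cells, so these shares are a description.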

How the data were processed

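The deposited matrices hold UMI counts per gene and cell, with no normalization, for live CD45+ cells of 4 libraries; the counts were whole numbers as deposited by the authors. The file headers name Cell Ranger 8.0.1, the submitters' processing notes Cell Ranger 7.1.0 with mm10, and the 5′ kit version differs between the labels and the methods, so neither could be settled. The members and gene lists were chosen with earlier results of these data known.

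Cells with 300 to 5000 genes and at most 6% mitochondrial UMIs were kept, and the highest Scrublet scores (scanpy 1.11.5), 0.4% of cells per 1000 deposited cells, were removed as doublets. This step removed 3, 4, 41 and 60 marker cells with at least 10 heavy-chain UMIs, none of them co-expressing, and the limits removed 16, 6, 21 and 27, of which 0, 1, 2 and 0 were co-expressing. Levels used a total without immunoglobulin genes. Log2 ratios had 0.5 added to each sum. Named genes were the 8 members, 36 listed genes and, for each of 3 leading classes, the 5 genes with the highest ratio, ranked by the smaller ratio of 2 libraries, with at least 50 UMIs in each. Shares carry Clopper-Pearson and log2 ratios exact binomial 95% intervals (scipy 1.17.1). With 1 library per group no p-value was computed. The steps were tested on simulated data. V genes and light chains were read by gene symbol, without junction sequence. Some listed genes are not reported here.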

Additional observations from a re-analysis of the deposited data

How the results depend on the processing

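No replicate was left out, since each group had 1 library. No paired analysis was possible because each group had 1 library. The main values were the assigned share, the Ighg1 share, co-expression, the cells holding 50% of Ighg1 or Ighm, and the IgG sum ratios. Of the alternatives to these, 160 stayed within the counting interval or close to the value, 30 moved and 6 changed sign. For all other values, mostly of single genes, these counts were 406, 147 and 8. The cause was not tested.

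The share of marker cells with a heavy chain (untreated, STING agonist, LTβR agonist, combination) was 96.4, 93.3, 92.6 and 87.7% with 2 markers, 58.3, 55.5, 77.7 and 79.2% with 3 UMIs to assign a cell, and 56.1, 57.4, 67.8 and 72.1% when cells were thinned. With 30 UMIs it moved to 52.4 and 50.5% in the last 2 libraries. Thinning left out 5, 15, 47 and 214 shallower marker cells. The Ighg1 share of IgG cells moved in the STING agonist library, to 41.2% with each V pair counted once, a count added after the data were seen. The cells that held 50% of untreated Ighm became 2 over all deposited cells and without the top cell.

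The level ratios (log2) depended most on the choice of cells. For the IgG sum against untreated, all deposited cells gave 1.40 (LTβR agonist) and 1.29 (combination), and keeping the doublets gave -0.0762 (STING agonist) and 0.83 (combination). Requiring 2 markers gave -0.13, 0.28 and 0.17, a total with immunoglobulin genes -0.10, 0.90 and 0.76, and the UMIs of all kept cells as the total -0.75, 2.14 and 2.52. Without the top cell, the STING agonist ratio was -0.000601. Against STING agonist, the combination stood at 1.2002 over all deposited cells, 0.30 with 2 markers, 1.03 without the top cell and 3.26 with all kept cells as the total. Signs also changed with 2 markers for Ighg1 (-0.32 with LTβR agonist and -0.51 with combination against untreated, -0.25 with combination against STING agonist) and for Igha (-0.48 and -0.51 against untreated). With all kept cells as the total the combination stood above LTβR agonist for the IgG sum (0.37), Ighg1 (0.30), Ighg2c (0.14) and Igha (0.32). No alternative run moved a co-expression share outside its interval.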

Other observations

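Heavy-chain RNA was also present in cells without any of the 5 marker genes. At least 100 heavy-chain UMIs were found in 2, 0, 3 and 15 such cells of the untreated, STING agonist, LTβR agonist and combination libraries, none of them with T cell genes. In the combination library 6 were led by Ighm, 4 by Ighg2b, 3 by Ighg2c and 2 by Ighg1. They were shallow, with a median of 1100 UMIs outside immunoglobulin genes, against 3684 in marker cells with as many heavy-chain UMIs. They were 2.94% of all such cells of that library.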
